A study of Mus musculus with 12 samples.

Results

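The neutrophil is a white cell of the blood and among the first to enter injured tissue. It is made in the bone marrow in stages, and each stage transcribes its own granule proteins. Primary granules are filled first, in promyelocytes, with myeloperoxidase and serine proteases. Secondary granules are filled later, in myelocytes and metamyelocytes, with lactoferrin, cathelicidin and lipocalin. The calcium-binding S100a8 and S100a9 proteins then accumulate in the cytosol until they make up much of the cell's soluble protein. In the spinal cord these transcripts are read as signs of neutrophils and their precursors, because neurons and glia are not known to make most of them at rest. Lcn2 is the main exception, since reactive astrocytes can also make it.
The 10 genes described here were listed by symbol for their place in this programme and found by their Ensembl identifiers among the 54838 genes of the count tables. They are S100a8 and S100a9, the pair that forms calprotectin, Ngp, Camp, Ltf and Lcn2 of the secondary granules, Mpo and Elane of the primary granules, Retnlg, a resistin-like secreted protein of myeloid cells, and Ly6g, the surface antigen used to identify mouse neutrophils. Ly6g is therefore a surface gene and the S100 pair is cytosolic, so not every member encodes a granule protein. All 10 passed the filter on low counts, which left 31109 genes, and the lowest count of any member in any library was 2909. No stretch of 100 bases in the annotated transcripts of a member was found in a transcript of another gene. Mpo overlaps the predicted gene Gm11505, which had between 0 and 6 counts.
RNA was sequenced from Percoll-enriched spinal cord cells of mice at postnatal day 60, with 3 libraries in each of 4 groups. Control mice were Olig1+/+;Tet1fl/fl and Tet1 mutants were Olig1cre/+;Tet1fl/fl, so both carried the floxed Tet1 allele and the mutants also carried cre in place of an Olig1 copy, active in Olig1-expressing cells of the oligodendrocyte lineage. Tissue was taken at 4 days after lysolecithin was injected into the ventrolateral white matter (4dpl), or from the opposite, unlesioned side of the cord, and the study used the contrast to ask which genes respond during early myelin repair with and without Tet1. The gradient enriches oligodendroglial cells but does not sort them, so blood and marrow cells that travel with the tissue are counted too. Nothing in the labels says whether the replicates came from separate mice or pools, so p-values measure the spread between these libraries.
Total counts per library were between 34805086 and 67251544. The gene-level count of Tet1 did not separate the genotypes, with 14.9 to 18.3 CPM (counts put on a common library size by TMM scaling) in control unlesioned and 9.94 to 16.4 CPM in mutant unlesioned libraries. At 4dpl the mutant mean was the higher one, with 11.7 to 12.5 CPM in control and 10.9 to 21.5 CPM in mutant libraries. Per the study, cre deletes a single exon of Tet1, only in Olig1-expressing cells, and staining for the protein showed the loss. A count over the whole gene in unsorted cells cannot decide whether Tet1 was lost. Markers of the lineage for which the preparation was enriched were present, since 9 oligodendroglial markers such as Mbp and Cnp took between 0.776% and 2.57% of all gene counts.
The genes lie on 7 chromosomes, and some are neighbours. On GRCm38, S100a8 is on chromosome 3 from 90668978 to 90670035 on the plus strand, and S100a9 is 22.6 kb away, from 90692632 to 90695721 on the minus strand. Camp (109847379 to 109849617, minus strand), Ngp (110419747 to 110423012, plus strand) and Ltf (111019271 to 111042767, plus strand) follow each other on chromosome 9, with 570.1 kb between Camp and Ngp and 596.3 kb between Ngp and Ltf. The remaining genes are Retnlg on chromosome 16 (48872621 to 48874496), Lcn2 on chromosome 2 (32384633 to 32388252), Mpo on chromosome 11 (87793581 to 87804413), Elane on chromosome 10 (79886247 to 79888215) and Ly6g on chromosome 15 (75155240 to 75159126).
Since the members moved together from library to library, their promoters were searched for short motifs of the factors that govern granule gene transcription in this lineage: the C/EBP core TTNNGNAA and the GAGGAA core of ETS factors such as PU.1. The search covered, on both strands, the 150 bases before the RefSeq start of each gene (build GRCm38.p6). All 10 genes matched an entry, Ly6g with 2 starts. The sequences below are those of the S100 pair, of Ngp and Ltf, the secondary granule genes most alike across libraries, and of Elane of the primary granules. They are written 5′ to 3′ along the gene's own strand and end at the base before the start, with matches to either motif in capitals.
S100a8 (chr3:90668921-90669070, plus strand): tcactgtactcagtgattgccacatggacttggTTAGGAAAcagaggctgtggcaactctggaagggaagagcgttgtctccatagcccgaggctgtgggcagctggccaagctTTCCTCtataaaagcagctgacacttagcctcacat
S100a9 (chr3:90695722-90695871, minus strand): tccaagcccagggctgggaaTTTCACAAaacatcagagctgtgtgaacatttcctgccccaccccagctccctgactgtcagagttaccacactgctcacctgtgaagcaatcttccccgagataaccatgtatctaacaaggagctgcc
Ngp (chr9:110419658-110419807, plus strand): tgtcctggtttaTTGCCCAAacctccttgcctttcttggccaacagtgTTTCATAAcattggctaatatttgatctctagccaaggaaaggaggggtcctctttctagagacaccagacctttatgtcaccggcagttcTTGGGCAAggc
Ltf (chr9:111019142-111019291, plus strand): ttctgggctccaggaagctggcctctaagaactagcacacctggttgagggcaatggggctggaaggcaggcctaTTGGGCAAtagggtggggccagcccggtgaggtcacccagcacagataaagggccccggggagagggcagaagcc
Elane (chr10:79886162-79886311, plus strand): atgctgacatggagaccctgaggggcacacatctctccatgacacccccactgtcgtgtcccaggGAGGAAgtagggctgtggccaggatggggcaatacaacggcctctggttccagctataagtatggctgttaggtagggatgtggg
The C/EBP core was found before 5 of the 10 genes, S100a8, S100a9, Ngp, Ltf and Ly6g, and Ngp held 3 copies. Of 32817 promoters of the same length in the table, 22.7% held it. The ETS core was found before 4 of the 10 genes, S100a8, Lcn2, Elane and Ly6g, against 14.5% of all promoters. Counted by promoter, as the background is, 5 of the 11 promoters of these genes held the C/EBP core and 5 of 11 the ETS core. Camp, Retnlg and Mpo had neither in these 150 bases. No position of a match in one sequence overlapped a match to the other motif.
The 10 genes together took a large share of the sequenced RNA. They held 6.24%, 8.79% and 11.8% of all gene counts in the control unlesioned libraries and between 2.65% and 3.28% in the control 4dpl libraries. In the mutant the shares were 3.78%, 9.33% and 14.6% unlesioned and 2.12%, 3.06% and 9.15% at 4dpl. The control groups did not overlap, whereas the mutant groups did. In a bulk preparation fewer neutrophils and less RNA per neutrophil cannot be told apart. Measured against the 9 oligodendroglial markers in the same library, the summed CPM of the 10 genes ranged from 1.19 times in mutant 4dpl replicate 3 to 15.1 times in mutant unlesioned replicate 2.

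**Figure D1:**
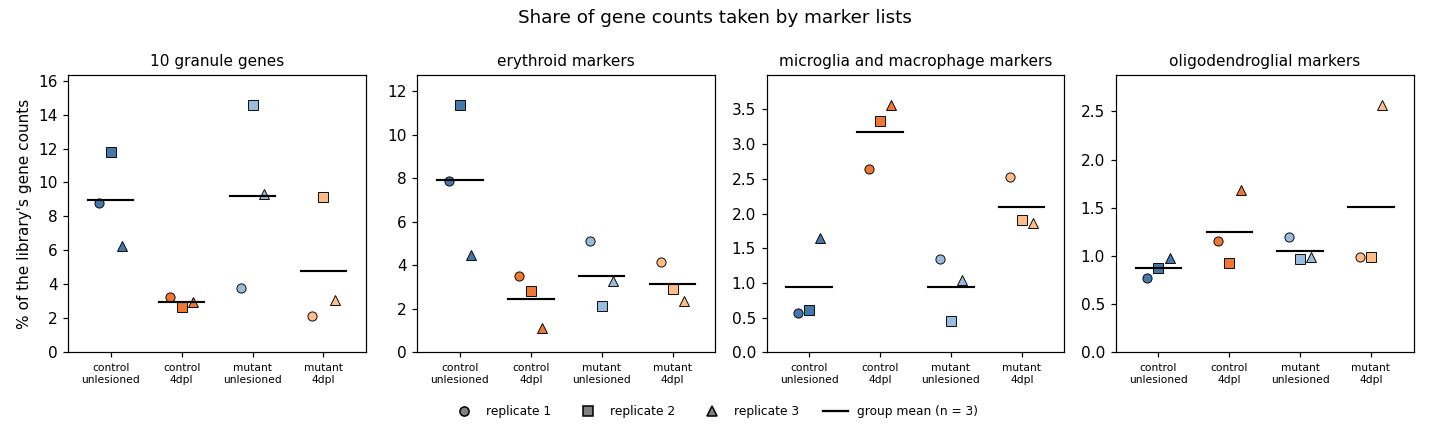
Share of each library's gene counts (y axes, %, each starting at 0) taken by 4 gene lists in the 4 groups (x axes). Points are libraries, marker shapes are replicate numbers and bars are means of 3; the 10 granule genes reach 14.6% in mutant unlesioned replicate 2, and the microglia and macrophage markers are higher at 4dpl in both genotypes.

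Shares of other cells' markers differed between libraries too, and their part in the shares of the 10 genes was not tested. Erythroid markers (9 of 9 tested) held 4.45% to 11.4% of counts in control unlesioned, 1.10% to 3.49% in control 4dpl, 2.13% to 5.11% in mutant unlesioned and 2.36% to 4.14% in mutant 4dpl libraries. Mutant unlesioned replicate 2, with the highest share of granule genes, had the lowest erythroid share of its group. Microglia and macrophage markers (12 of 12 tested) held 0.561% to 1.65% of counts in control unlesioned and 2.64% to 3.57% in control 4dpl libraries. In the mutant they held 0.444% to 1.34% unlesioned and 1.86% to 2.52% at 4dpl.
Per kilobase of exon, where levels of different genes can be compared, S100a9 was highest with a mean of 33804 CPM per kb over the 12 libraries and S100a8 followed with 26274. Ngp stood at 8887, Camp at 4409, Retnlg at 4169, Ltf at 1845, Lcn2 at 1178, Elane at 287, Ly6g at 272 and Mpo at 130 CPM per kb. In 12 of 12 libraries S100a9 was above S100a8, S100a8 above Ngp and Ngp above Camp. Camp exceeded Retnlg in only 5 of 12 libraries and Elane exceeded Ly6g in only 5 of 12, so neither pair has a settled order. Ranked by CPM among all genes of a library, S100a8 was between 1 and 12 and S100a9 between 2 and 11.
S100a8 and S100a9 encode the subunits of calprotectin, which binds calcium, zinc and manganese and signals through Toll-like receptor 4 once released. S100a8 was at 26706, 32675 and 15494 CPM in control unlesioned replicates 1 to 3 and at 9937, 8629 and 9394 CPM in control 4dpl. In the mutant it was at 8664, 35425 and 22759 CPM unlesioned and at 6371, 33056 and 9701 CPM at 4dpl. The control groups were separated, and in the mutant a single 4dpl library, replicate 2, was above 2 of the 3 unlesioned ones. S100a9 followed it in every library, with 15526 to 32793 CPM in control unlesioned, 8828 to 10190 in control 4dpl, 8360 to 34354 in mutant unlesioned and 6337 to 31084 CPM in mutant 4dpl libraries.
Ngp encodes neutrophilic granule protein, a cystatin-like protein of the secondary granules. It was at 19051, 13451 and 6227 CPM in control unlesioned and at 7390, 5245 and 5794 CPM in control 4dpl libraries. In the mutant it was at 5900, 23130 and 12891 CPM unlesioned and at 4028, 20334 and 6870 CPM at 4dpl. Both pairs of groups overlapped, in the control because replicate 3 of the unlesioned libraries was below replicate 1 at 4dpl.
Camp encodes the cathelicidin precursor, which is cleaved into an antimicrobial peptide on release. Its CPM was 5873, 6840 and 2938 in control unlesioned and 1613, 1627 and 1377 in control 4dpl libraries. In the mutant it was 1628, 6745 and 3290 unlesioned and 1035, 5509 and 1631 at 4dpl. The control groups were separated by a gap from 1627 to 2938 CPM.
Ltf encodes lactoferrin, which sequesters iron, and Lcn2 encodes lipocalin 2, which binds the iron carriers of bacteria. Ltf was at 3244 to 11757 CPM in control unlesioned, 3305 to 4687 in control 4dpl, 3857 to 12870 in mutant unlesioned and 2594 to 12394 CPM in mutant 4dpl libraries, and overlapped in both genotypes. Lcn2 was at 2035 to 5120 CPM in control unlesioned and at 1684 to 2032 CPM in control 4dpl libraries, so that the groups were separated by a very small gap. In the mutant Lcn2 was at 1530 to 5983 CPM unlesioned and 1100 to 5306 CPM at 4dpl. Retnlg was at 1571 to 4626 CPM in control unlesioned and at 1035 to 1568 CPM in control 4dpl libraries, again with an almost closed gap, and overlapped in the mutant (1296 to 4812 and 885 to 4706 CPM).
Mpo encodes myeloperoxidase, which makes hypochlorous acid, and Elane encodes neutrophil elastase, and both are transcribed mainly by promyelocytes rather than by circulating neutrophils. Mpo was at 883, 652 and 457 CPM in control unlesioned and at 593, 294 and 119 CPM in control 4dpl libraries. In the mutant it was at 222, 798 and 471 CPM unlesioned and at 203, 418 and 246 CPM at 4dpl. Elane was at 504, 657 and 385 CPM in control unlesioned and at 280, 165 and 67.0 CPM in control 4dpl libraries. In the mutant Elane was at 104, 487 and 256 CPM unlesioned and at 110.2, 246 and 123 CPM at 4dpl. Elane was separated between the control groups and Mpo was not. In mutant 4dpl replicate 2 both were below unlesioned replicates 2 and 3, where the S100 pair was above replicate 3.
Ly6g was at 461, 406 and 143 CPM in control unlesioned and at 162, 91.9 and 103 CPM in control 4dpl libraries. In the mutant it was at 140, 584 and 301 CPM unlesioned and at 107, 430 and 150 CPM at 4dpl. Its control groups overlapped through unlesioned replicate 3.

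**Figure D2:**
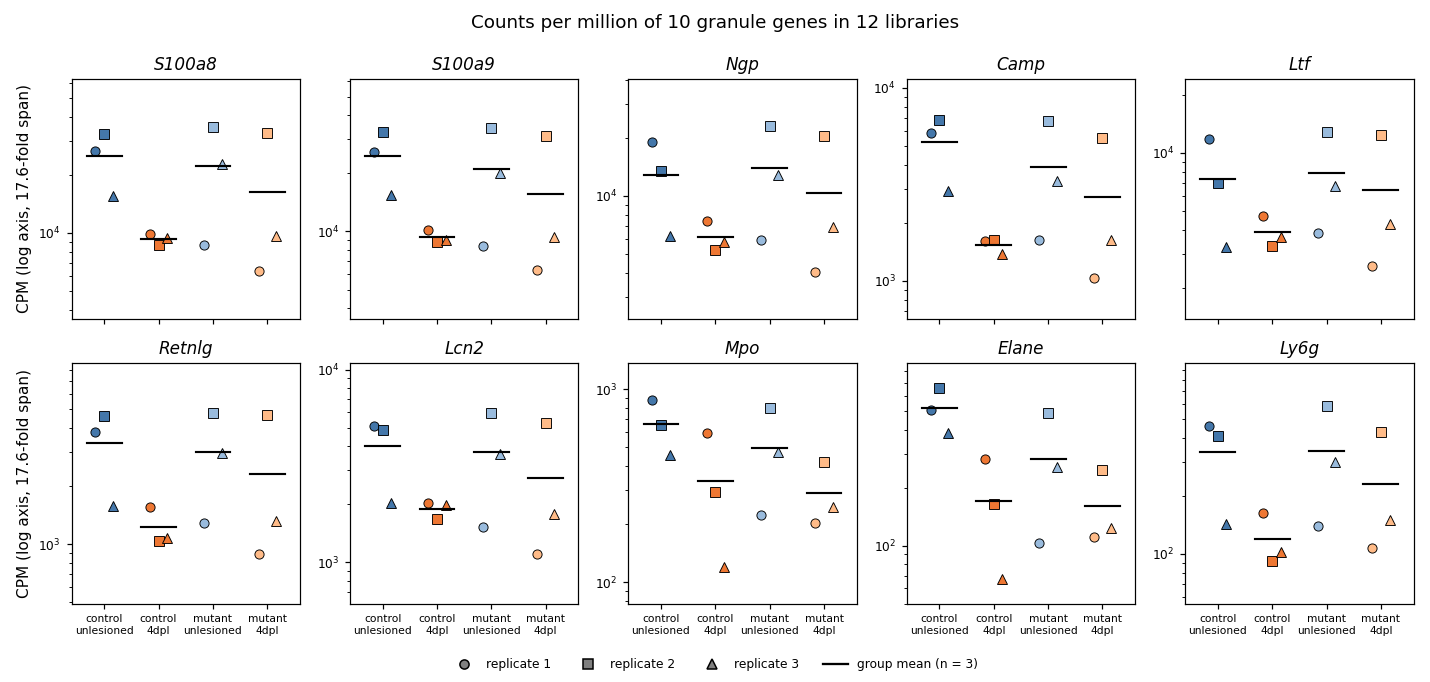
CPM of each of the 10 genes (y axes, log scale, the same span of folds in every panel) in the 12 libraries by group (x axes). Marker shapes are replicate numbers and bars are means of 3; mutant replicate 2 is highest and mutant replicate 1 is lowest for all 10 genes, both unlesioned and at 4dpl.

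The libraries of a group differed widely. In both mutant groups replicate 2 was the highest library for 10 of 10 genes and replicate 1 the lowest for 10 of 10, and in the control unlesioned group replicate 3 was the lowest for 10 of 10. S100a8 differed 4.09-fold between the highest and the lowest mutant unlesioned library and 5.19-fold at 4dpl, but 2.11-fold and 1.15-fold in the control groups. At 4dpl Mpo and Elane went the other way, with 4.97-fold and 4.18-fold in control and 2.07-fold and 2.24-fold in mutant libraries. So did Ltf in unlesioned tissue, with 3.62-fold in control and 3.34-fold in mutant libraries. Pooled over the 4 groups, the SD between libraries of a group on the log2(CPM + 0.5) scale was between 0.82 (Mpo) and 0.91 (Retnlg). The median over the 16256 genes with a mean of at least 1 CPM was 0.37, and between 97.2% and 98.3% of those genes had a smaller SD than each of the 10.
The first comparison asked what changed in control mice at 4dpl. All 10 genes had a lower fitted mean at 4dpl than unlesioned, and none passed the test (edgeR quasi-likelihood test, called at an unadjusted p of 0.01 and a Benjamini-Hochberg adjusted p of 0.05). The log2 fold change was -1.42 ± 0.63 (SE) for S100a8 (adjusted p = 0.132) and -1.40 ± 0.62 for S100a9 (adjusted p = 0.132). Among the secondary granule genes it was -1.76 ± 0.61 for Camp (adjusted p = 0.0723), -1.07 ± 0.63 for Ngp (adjusted p = 0.235), -0.91 ± 0.61 for Ltf (adjusted p = 0.294) and -1.08 ± 0.59 for Lcn2 (adjusted p = 0.204). For the primary granule genes it was -1.59 ± 0.55 for Elane (adjusted p = 0.0715) and -0.99 ± 0.54 for Mpo (adjusted p = 0.206). Retnlg had -1.44 ± 0.62 (adjusted p = 0.121) and Ly6g -1.50 ± 0.59 (adjusted p = 0.096).
Of all genes tested, 5.01% were called lower in this comparison, against 0 of the 10. At an unadjusted p under 0.05 there were 6 of the 10, against 34.0% of all genes in either direction. DESeq2 called 5 of the 10 lower, S100a8, S100a9, Camp, Elane and Ly6g, and 15.2% of all genes lower. The median log2 fold change of the 10 was -1.41, beside -0.36 over all genes tested and 0.25 over genes with a mean of at least 1 CPM. The libraries of 6 of the 10 genes, S100a8, S100a9, Camp, Retnlg, Lcn2 and Elane, did not overlap, every 4dpl library being below every unlesioned one, as in 21.4% of all genes. Among the 16256 genes with a mean of at least 1 CPM, 1457 were separated in this way. Leaving out any 1 control library left 0 of the 10 called, while the number of all genes called lower went from 1558 to 3277 without unlesioned replicate 1, 33 without unlesioned replicate 3, 903 without 4dpl replicate 3, 1 without 4dpl replicate 1, and 0 without unlesioned replicate 2 or 4dpl replicate 2.
Control libraries with the same replicate number deviated together, with correlations of 0.308, 0.173 and 0.304 over genes, and with the replicate number as a block 7 of the 10 genes were called lower, as were 4.84% of all genes. These were Camp (log2 fold change -1.68, adjusted p = 0.0157), Elane (-1.79, adjusted p = 0.0157), Ly6g (-1.38, adjusted p = 0.024), Mpo (-1.22, adjusted p = 0.0304), Retnlg (-1.32, adjusted p = 0.0413), S100a9 (-1.34, adjusted p = 0.0464) and S100a8 (-1.36, adjusted p = 0.049). Lcn2 (-0.97, adjusted p = 0.0896), Ngp (-0.95, adjusted p = 0.108) and Ltf (-0.75, adjusted p = 0.177) were not called with the block. The study took unlesioned tissue from the side opposite the lesion, but its own sample list numbers these libraries differently from the labels. Which libraries share a mouse is therefore not known, and the block rests only on the labels' numbers and these correlations.

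**Figure D3:**
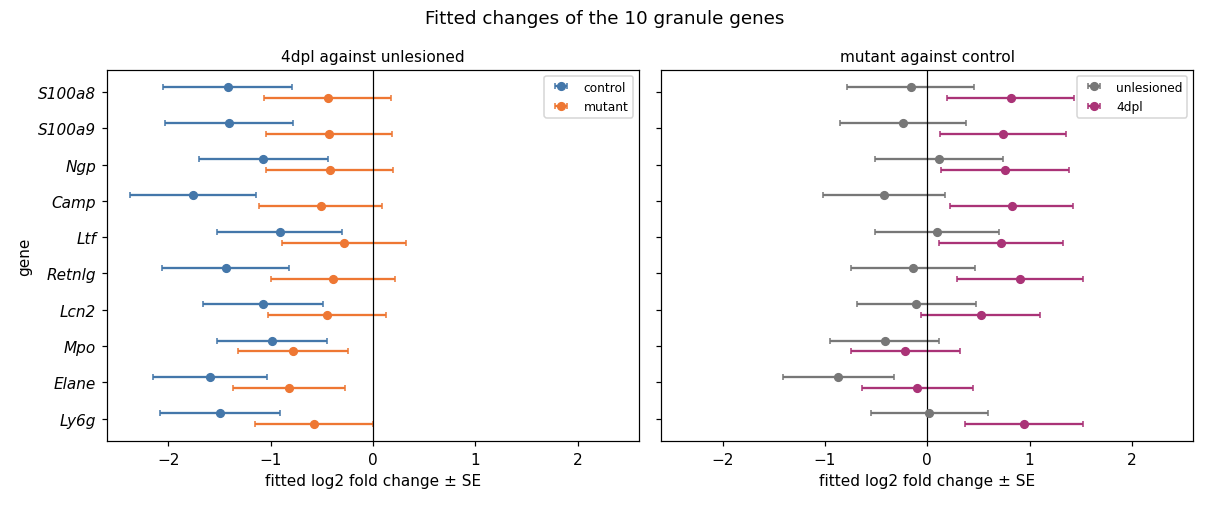
Fitted log2 fold change ± SE of each gene (y axis), 4dpl against unlesioned in each genotype (left) and mutant against control in each tissue (right), from the edgeR fit to all 12 libraries. In control mice the 10 values run from -1.76 (Camp) to -0.91 (Ltf), and in mutants from -0.82 (Elane) to -0.29 (Ltf).

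In the mutant the same comparison gave smaller values and wide errors. The log2 fold changes ran from -0.82 ± 0.54 (SE) for Elane (adjusted p = 0.287) and -0.78 ± 0.54 for Mpo (adjusted p = 0.302) to -0.44 ± 0.62 for S100a8 (adjusted p = 0.622) and -0.29 ± 0.61 for Ltf (adjusted p = 0.75). None of the 10 was called by edgeR, which called 0.113% of all genes lower, or by DESeq2, which called 12.8% lower. None had an unadjusted p under 0.05, against 33.8% of all genes in either direction. The libraries overlapped for 10 of 10 genes, while 23.2% of all genes had every 4dpl library below every unlesioned one. Among the 16256 genes with a mean of at least 1 CPM, 895 did. The median of the 10 was -0.45, beside -0.18 over all genes tested and 0.40 over genes with a mean of at least 1 CPM. The sign of these values rested on single libraries: without mutant unlesioned replicate 2 it was positive for 8 of the 10 genes, from 0.07 for Ly6g to 0.29 for Ltf, and without mutant 4dpl replicate 1 it was positive for Ltf (0.12) and Retnlg (0.02). Without mutant 4dpl replicate 2 the values were larger, from -1.51 for Camp to -1.12 for Mpo, and 0 of the 10 were called.
Averaged over both genotypes, Elane was lower at 4dpl and was the only one of the 10 that was called, with a log2 fold change of -1.21 ± 0.39 (SE, adjusted p = 0.0254, edgeR), a 2.31-fold lower fitted mean. Camp was at -1.14 ± 0.43 (adjusted p = 0.0465, edgeR) and missed the threshold on the unadjusted p. The others were between -1.04 (Ly6g) and -0.60 (Ltf), with adjusted p-values from 0.0554 to 0.265. Of all genes 18.6% were called lower here, as were 805 of the 16256 genes with a mean of at least 1 CPM. The share of 1 in 10 is below the first background and above the second, and it rests on a single gene. In this pooled comparison 0 of 10 were free of overlap, against 7.42% of all genes. DESeq2 called 6 of the 10 lower, beside 31.3% of all genes. The replicate block, which here also pairs the mutant libraries by number, called 7 of the 10 lower, beside 15.7% of all genes.
The call of Elane was lost without any 1 of 8 libraries, with an adjusted p between 0.03 and 0.0733 (edgeR) and an unadjusted p above 0.01 in each. These were control unlesioned replicates 1 and 2, control 4dpl replicates 2 and 3, mutant unlesioned replicates 2 and 3, and mutant 4dpl replicates 1 and 3. Leaving out mutant 4dpl replicate 2 instead raised the number called lower to 7 of 10, all but Ngp, Ltf and Mpo. The number was 3 without mutant unlesioned replicate 1 (Camp, Elane and Ly6g), 2 without control unlesioned replicate 3 (Elane and Ly6g) and 2 without control 4dpl replicate 1 (Mpo and Elane).
The genotypes were compared next, to ask whether loss of Tet1 in the oligodendrocyte lineage went with a different level in either tissue. In unlesioned tissue the log2 fold change of mutant against control was between -0.87 ± 0.54 (SE) for Elane and 0.11 ± 0.62 for Ngp, and at 4dpl between -0.21 ± 0.53 for Mpo and 0.94 ± 0.58 for Ly6g. None of the 10 was called in either comparison by edgeR or DESeq2, none had an unadjusted p under 0.05, and their libraries overlapped for every gene. Over all genes 0.0% were called in each of these comparisons by edgeR, and 10.4% unlesioned and 12.8% at 4dpl were free of overlap in either direction. At an unadjusted p under 0.05 there were 1624 genes unlesioned and 2153 at 4dpl, and DESeq2 called 33 and 218 genes.
At 4dpl 8 of the 10 genes had a positive value and the primary granule genes Mpo (-0.21) and Elane (-0.10) did not. S100a8 was at 0.81 ± 0.62 (SE, adjusted p = 0.893) and Camp at 0.82 ± 0.60 (adjusted p = 0.882). Without mutant 4dpl replicate 2, 7 of these 8 turned negative, from -0.40 for Lcn2 to -0.15 for Retnlg, so that the direction rested on that library. Without control 4dpl replicate 1, Mpo (0.48) and Elane (0.46) turned positive.
The change after lesion was compared between genotypes as an interaction. It was positive for 10 of 10 genes, that is, the fitted difference was less negative in the mutant, from 0.20 ± 0.75 (SE) for Mpo to 1.25 ± 0.85 for Camp. No gene passed the test, none of the 10 had an unadjusted p under 0.05, and 0.0% of all genes were called (1184 at an unadjusted p under 0.05, 0 by DESeq2). Without mutant 4dpl replicate 2 the interaction was negative for 7 of the 10, from -0.29 for Lcn2 to values near 0. The larger fitted values in control mice are thus not a shown difference between genotypes.
Ratios between members of the same library do not depend on how libraries are scaled, and they separated the genes into those that kept a ratio and those that did not. S100a8 was between 73.3% and 84.8% of S100a9 per kilobase in all 12 libraries. Ltf was between 18.4% and 23.2% of Ngp, and Lcn2 between 12.03% and 16.8% of Ngp. These ranges are narrow beside the 4-fold and 5-fold differences between libraries of a mutant group.
Camp against Ngp was less even. It was 49.7% in control unlesioned replicate 1, 82.0% in replicate 2 and 76.1% in replicate 3, against 35.2% and 38.3% in control 4dpl replicates 1 and 3, and replicate 2 at 4dpl lay just above unlesioned replicate 1. In the mutant it was 41.1% to 47.0% unlesioned and 38.3% to 43.7% at 4dpl. The highest ratios were those of control unlesioned replicates 2 and 3, while replicate 1 lay with the other groups. Elane against Mpo showed the same libraries apart: it was 199%, 351% and 294% in control unlesioned replicates 1 to 3 and between 162% and 212% in the other 9 libraries.
Primary granule transcripts made up a small and variable part of the granule transcripts. Mpo and Elane summed per kilobase were 2.88% to 5.30% of Ngp, Camp and Ltf in control unlesioned and 1.35% to 4.80% in control 4dpl libraries. In the mutant they were 2.10% to 2.36% unlesioned and 1.35% to 3.16% at 4dpl. All 3 mutant unlesioned libraries were below all 3 control unlesioned ones, and the groups overlapped in the other comparisons of this ratio. Among single genes 10.4% were free of overlap in either direction between these groups, and several ratios were examined. A difference between genotypes in this ratio was not tested.

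**Figure D4:**
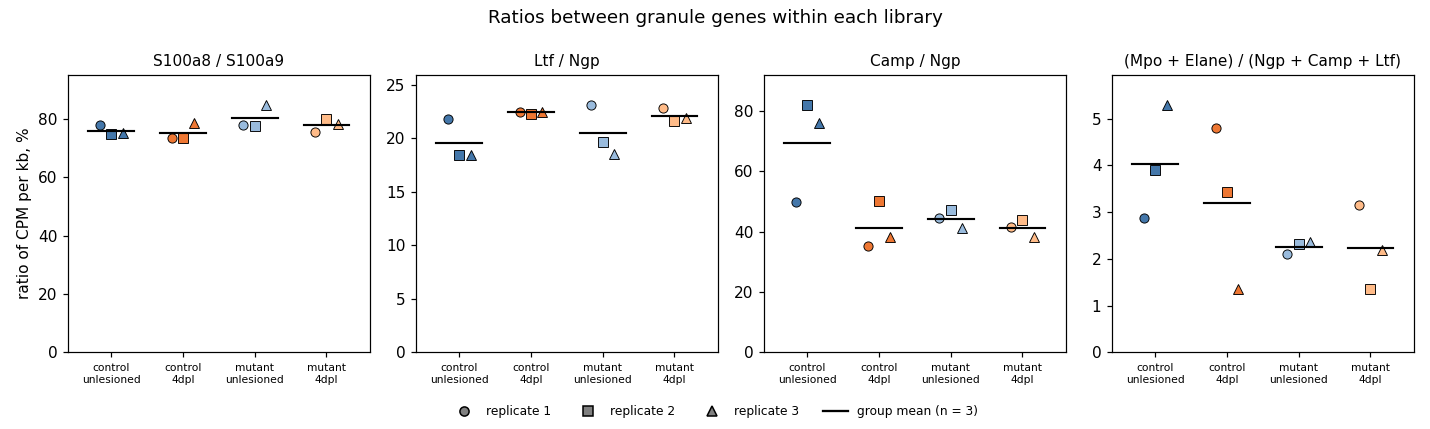
Ratios of CPM per kilobase between granule genes within each library (y axes, %, each starting at 0) by group (x axes). Marker shapes are replicate numbers and bars are means of 3; S100a8/S100a9 stays between 73.3% and 84.8%, whereas Camp/Ngp reaches 82.0% in control unlesioned replicate 2.

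Across the 12 libraries the genes fell into a block of 8 and a pair. Pearson's r of log2(CPM + 0.5) over the 12 libraries was between 0.882 and 0.998 among the 8 genes other than Mpo and Elane, with a median of 0.964. Between Mpo and Elane it was 0.957, and between either of them and the other 8 it was between 0.644 (Elane with Ltf) and 0.852 (Elane with Camp). The closest partner of S100a8 was S100a9 (0.998), that of Ngp was Ltf (0.990) and that of Ly6g was Retnlg (0.982). With the group means removed the ranges were 0.915 to 0.998 among the 8 and 0.660 to 0.787 between them and the pair, so the split was also present within groups. These correlations describe 12 libraries that share their depth and scaling between genes, and carry no p-value.

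**Figure D5:**
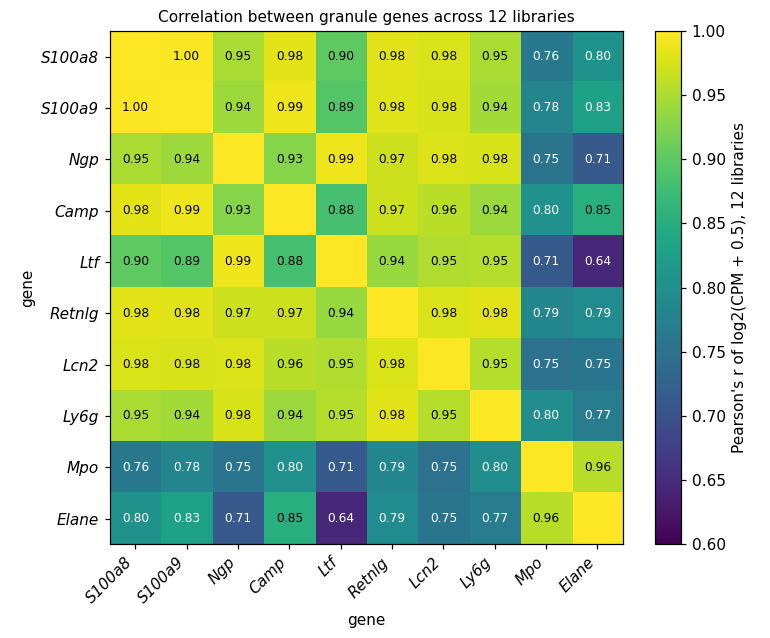
Pearson's r between each pair of the 10 genes (both axes) on log2(CPM + 0.5) over 12 libraries, with the value printed in each cell. The 8 genes from S100a8 to Ly6g have r between 0.882 and 0.998 with each other, and Mpo and Elane have 0.957 with each other and at most 0.852 with the rest.

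Among 16246 other genes with a mean of at least 1 CPM, those most like the average pattern of the 10 over the 12 libraries were the unnamed transcripts I830127L07Rik (r = 0.998) and B230208H11Rik (r = 0.992). Fcnb (r = 0.992), a ficolin of neutrophil granules, Pglyrp1 (r = 0.991), a peptidoglycan-binding granule protein, and Slpi (r = 0.990), an inhibitor of elastase, followed. Mgst2, Tmem40, Cebpe, Unc119 and Nfe2 completed the first 10, with r from 0.985 (Nfe2) to 0.990 (Mgst2). Cebpe is the C/EBP factor required for secondary granules and had r = 0.989. Other granule genes looked up were less like that average: Chil3 had 0.882, Prtn3 and Ctsg of the primary granules 0.844 and 0.836, and Mmp8, a collagenase of later granules, 0.788. Csf3r (0.272), the receptor for granulocyte colony-stimulating factor, and Lyz2 (0.338), which macrophages also express, were least like it among the neutrophil genes looked up.
The rest of the granule programme was followed through a wider list of 24 granule proteins, of which 23 were tested. In control mice none was called by edgeR, and 9 of 23 had an unadjusted p under 0.05, a share close to the 34.0% of all genes. DESeq2 called 7 lower and 1 higher, and the replicate block called 8 lower and 1 higher. In mutants none was called by edgeR or DESeq2 and 1 had an unadjusted p under 0.05. Averaged over genotypes 3 of 23 were called lower, a smaller share than the 18.6% of all genes. It was a larger share than among genes with a mean of at least 1 CPM, where 805 of 16256 were called lower. The 3 genes were Ctsg (log2 fold change -1.26, adjusted p = 0.0127) and Prtn3 (-1.22, adjusted p = 0.017), which share the primary granules with Elane, and Stfa2 (-1.42, adjusted p = 0.0248), a stefin that inhibits cathepsins. Itgam, the integrin chain that microglia and macrophages also carry, was called higher (0.71, adjusted p = 0.0249). The lower calls ranged from 1 to 12 when 1 library was left out.
Genes of the mature neutrophil had a median log2 fold change of -0.73 in control mice and -0.03 in mutants. Of 20 surface and signalling genes none was called in either genotype or on average by edgeR, with 2, 0 and 3 at an unadjusted p under 0.05 against 34.0%, 33.8% and 52.0% of all genes, and DESeq2 called 1 lower in control mice and 2 lower on average. The replicate block called 3 lower in control mice. G0s2, an inhibitor of lipolysis, had the highest level of the list per kilobase, with means of 272 CPM in control unlesioned and 93.0 CPM in control 4dpl libraries. C5ar1, the complement C5a receptor, was at 371 and 454 CPM in the same groups.
Among 14 transcription factors and progenitor genes of granulopoiesis, 2 were called lower in control mice, Gfi1 (-2.43 ± 0.69 SE, adjusted p = 0.044), a repressor needed for neutrophil differentiation, and Cebpd (-1.50 ± 0.41, adjusted p = 0.0416), a C/EBP factor that is also induced in inflammation. Cd34, which endothelial cells also express, was called higher (1.47 ± 0.39, adjusted p = 0.0391). Averaged over genotypes Ms4a3 (-1.03, adjusted p = 0.0227) and Prss57 (-1.12, adjusted p = 0.0304), genes of granulocyte precursors, were called lower as well, and Runx1 (0.57, adjusted p = 0.0176) higher. With the replicate block 7 of the 14 were called lower and 1 higher in control mice. Over all genes 5.01% were called lower in control mice, 4.84% with the block and 18.6% on average. Of all 31109 genes tested, 1592 were called higher in control mice and 4423 on average. These shares are also the background of the lists that follow. Each control call in this and the following lists was lost without at least 1 of the control libraries.
Signals that draw neutrophils were counted apart. Of 15 tested, Tnf alone was called in control mice, and it was higher (1.10 ± 0.33 SE, adjusted p = 0.0498). Averaged over genotypes Tnf (0.85, adjusted p = 0.0137) and the adhesion molecule Icam1 (0.83, adjusted p = 0.0248) were called higher, and Sele (-1.93, adjusted p = 0.027) and Csf2 (-2.32, adjusted p = 0.0297), both with a mean under 1 CPM, lower. Of all 31109 genes tested, 4423 were called higher and 5771 lower on average, so neither count of 2 in 15 exceeds that background. Il1b had the highest level of the list per kilobase, with means of 1035 and 722 CPM in control unlesioned and 4dpl libraries, and was not called. The median of the list was -0.24 in control mice and 0.30 in mutants.
Receptors and inhibitors of the granule proteins included several that rose. Of the 16256 genes with a mean of at least 1 CPM, 1586 were called higher in control mice and 4396 on average. Of 12 tested of 13, Ly96, the co-receptor through which calprotectin reaches Toll-like receptor 4, rose in control mice (1.06 ± 0.23 SE, adjusted p = 0.0265), as did Lrp1, a receptor that clears lactoferrin and protease complexes (1.85 ± 0.39, adjusted p = 0.0265). Serpina3n, a serine protease inhibitor and a reactive astrocyte gene, rose in control mice (1.71 ± 0.43, adjusted p = 0.0355) and in mutants (2.80 ± 0.45, adjusted p = 0.0445). The mutant call was lost without any 1 of 5 mutant libraries, all but unlesioned replicate 1, since 0 genes were then called. Averaged over genotypes Tlr4 rose too (0.99, adjusted p = 0.0165). Slpi, which is itself a neutrophil gene, had means of 494 CPM in control unlesioned and 190 CPM in control 4dpl libraries and was not called.
Marker lists of other cells were set beside these values, and their part in the values of the granule genes was not tested. Of 12 microglia and macrophage markers 6 rose in control mice, among them Cd68 (2.17, adjusted p = 0.0244), Adgre1 (2.09, adjusted p = 0.0256) and Apoe (2.46, adjusted p = 0.0297), and the log2 fold changes of all 12 were positive. Of all 31109 genes tested, 1592 were called higher in control mice. Of 9 erythroid markers none was called in control mice by edgeR, 6 had an unadjusted p under 0.05, DESeq2 called 5 lower and the replicate block 7, and their median was -1.25. Over all genes 34.0% had an unadjusted p under 0.05 in either direction, and DESeq2 called 15.2% lower and the replicate block 4.84%. In mutants the median log2 fold change of the erythroid markers was 0.22, while that of the granule genes was -0.45. Averaged over genotypes Klf1, an erythroid transcription factor, was called lower (-1.30, adjusted p = 0.0296).
Markers of marrow B cell precursors were also counted. Vpreb1 (-1.87 ± 0.54 SE, adjusted p = 0.0454) and Igll1 (-1.70 ± 0.48, adjusted p = 0.0445), the surrogate light chain genes that pre-B cells express in the marrow, were called lower in control mice, 2 of 16 genes in a list that also held megakaryocyte genes. Pf4, a platelet chemokine that macrophages also make, was called higher (3.14 ± 0.59, adjusted p = 0.0252). Averaged over genotypes Rag1 (-1.67, adjusted p = 0.00473), Vpreb3 (-1.14, adjusted p = 0.0165) and the megakaryocyte integrin Itga2b (-0.76, adjusted p = 0.0237) were called lower, along with Igll1. These 4 of 16 stand beside 18.6% of all genes, and 805 of the 16256 genes with a mean of at least 1 CPM. The summed share of this list was between 0.0133% and 0.0543% of counts in any library.
Of 9 monocyte markers Plac8, which neutrophil precursors share, was called lower in control mice (-1.44, adjusted p = 0.0486) and Fn1, a matrix gene of macrophages and other cells, higher (1.92, adjusted p = 0.0425). Of 10 astrocyte markers Gfap (2.07, adjusted p = 0.0214) and Serpina3n were called higher in control mice, and the list held Lcn2's other known source in the cord. None of 8 proliferation genes was called in control mice by edgeR or DESeq2, with 0 at an unadjusted p under 0.05, and Pcna (0.49, adjusted p = 0.0205) was called higher on average. Of the 9 oligodendroglial markers Pdgfra (1.70, adjusted p = 0.0256) and Cspg4 (1.97, adjusted p = 0.0303), genes of progenitors, were called higher in control mice.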

How the data were processed

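RNA-seq libraries came from 12 samples, 3 in each of 4 groups taken from the labels. The deposited values are raw gene counts: per the study's methods the authors used featureCounts with Ensembl GRCm38 gene models, keeping reads with a unique alignment to exons. Those methods name BWA as the aligner, while the submitters' processing notes list STAR, DESeq2 1.2.5 and mm10. Whether counting used strand is not given in the sources used here.
In R 4.3.3, edgeR 4.0.16 (filterByExpr, TMM, glmQLFit and glmQLFTest) was fitted to all 12 libraries with a mean for each group, on 31109 of 54838 genes. A call needed an unadjusted p under 0.01 and a Benjamini-Hochberg adjusted p under 0.05, as in the study. Levels are TMM-scaled CPM, divided by exon length for CPM per kb, and logs used a pseudocount of 0.5 CPM. With 34805086 to 67251544 counts per library, the spread between 3 libraries outweighs counting error for these genes. The fits were tested on simulated data.
The 10 genes and all lists were chosen with earlier results of these data known. Named genes are the 10, up to 4 called genes of each list by smallest p or else those with the highest CPM per kb, and the 10 genes most correlated with the average of the 10. Slpi, the genes looked up for their correlation (Chil3, Mmp8, Prtn3, Ctsg, Csf3r, Lyz2) and called genes beyond 4 of a list were picked after their values were seen. Libraries of the same replicate number, taken from the labels, correlated in their deviations from group means at 0.308, 0.173 and 0.304 in controls and 0.152, 0.273 and 0.032 in mutants over 16256 genes, so by the rule of a correlation over 0.1 in every pair the numbers pair the controls but not the mutants. The block was also fitted with the mutant numbers, as an alternative.
Alternatives were RLE size factors, total counts, DESeq2 1.42.0, no filter on low counts, at least 10 counts in every library, fitting only the groups compared, a replicate block and leaving out each library. The newer quasi-likelihood option of edgeR and library sizes without granule and erythroid genes were tried only once the data had been seen. Promoter sequences are RefSeq's (GRCm38.p6). One gene of the marker lists is not reported here and was left out of the sums.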

Additional observations from a re-analysis of the deposited data

How the results depend on the processing

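With 3 libraries in a group and a wide spread, the number of calls moved with single libraries, and the cause was not tested. Lesion in control mice gave 3150 called genes, and 7238 with DESeq2, 1295 with at least 10 counts in every library, 1162 with only the groups compared, 5948 with the newer quasi-likelihood option (added after seeing the data) and 1 to 7401 with 1 library left out. Lesion in mutants gave 42 called genes, and 5118 with DESeq2, 947 with no filter, 772 with only the groups compared, 4 with the replicate block, 4430 with the newer option, 102 with library sizes without granule and erythroid genes and 0 to 3430 with 1 library left out. The mean of both genotypes gave 10194 called genes, and 3591 with at least 10 counts in every library. Genotype in unlesioned tissue gave 0 called genes, and 33 with DESeq2, 9 with no filter, 1 with the newer option and 0 to 1 with 1 library left out. Genotype at 4dpl gave 0 called genes, and 218 with DESeq2 and 4 with no filter.
Of the 10 granule genes, those called in control mice were 0, and 5 with DESeq2, 1 with no filter (Elane), 1 with only the groups compared (Camp) and 7 with the replicate block. For the mean of both genotypes they were 1, and 6 with DESeq2, 3 with no filter, 4 with at least 10 counts in every library, 7 with the replicate block and 0 to 7 with 1 library left out. The block changed no other call of these genes. The blocked fits of mutants and of the mean also use the mutant numbers, which the correlations of 0.152, 0.273 and 0.032 do not show to be pairs. In unlesioned tissue the log2 fold change of Ly6g between genotypes turned from 0.02 to -0.062 with no filter and to -0.021 with the replicate block.
With 1 library left out, the log2 fold change after lesion in mutants ran from -1.44 to 0.076 for S100a8, -1.39 to 0.14 for S100a9, -1.33 to 0.16 for Ngp, -1.51 to 0.16 for Camp, -1.16 to 0.29 for Ltf, -1.42 to 0.13 for Retnlg, -1.34 to 0.090 for Lcn2 and -1.38 to 0.071 for Ly6g. Each of these lowest values was without mutant 4dpl replicate 2 and each highest without mutant unlesioned replicate 2. Between genotypes in unlesioned tissue it ran from -0.67 to 0.21 for S100a8, -0.79 to 0.13 for S100a9, -0.46 to 0.50 for Ngp, -0.47 to 0.61 for Ltf, -0.65 to 0.21 for Retnlg, -0.63 to 0.25 for Lcn2 and -0.61 to 0.38 for Ly6g, each lowest value being without mutant unlesioned replicate 2. Between genotypes at 4dpl it ran from -0.21 to 1.20 for S100a8, -0.25 to 1.11 for S100a9, -0.17 to 1.15 for Ngp, -0.21 to 1.21 for Camp, -0.18 to 1.10 for Ltf, -0.15 to 1.29 for Retnlg, -0.40 to 0.90 for Lcn2, -0.72 to 0.48 for Mpo and -0.59 to 0.46 for Elane. The interaction ran from -0.041 to 1.48 for S100a8, -0.0079 to 1.53 for S100a9, -0.28 to 1.22 for Ngp, -0.27 to 1.19 for Ltf, -0.0060 to 1.55 for Retnlg, -0.29 to 1.15 for Lcn2 and -0.33 to 0.91 for Mpo.
Scaling by total counts instead of TMM moved the median log2 difference of 16256 genes by -0.30 after lesion in control mice and -0.45 in mutants, and RLE moved it by -0.06 and -0.13. Levels of the 10 genes by group moved by less than 1 SD in 40 of 40 cases with RLE and in 36 of 40 with total counts. The direction of the lesion change in control mice was the same for all 10 genes under every alternative fitted, with log2 fold changes from -2.13 to -0.37 when 1 library was left out.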
